A study of Mus musculus with 4 samples.

Results

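The genes described here were 10 of the 36601 genes in the count tables of human CD45+ cells sorted from MDA-MB-231 tumors, and they were chosen by name as immune checkpoint receptors and their ligands. On the receptor side stood 6 genes: PDCD1 (ENSG00000188389, encoding PD-1), LAG3 (ENSG00000089692), HAVCR2 (ENSG00000135077, TIM-3), TIGIT (ENSG00000181847), TOX (ENSG00000198846) and ENTPD1 (ENSG00000138185, CD39). On the ligand side stood 4 genes: CD274 (ENSG00000120217, PD-L1), PDCD1LG2 (ENSG00000197646, PD-L2), LGALS9 (ENSG00000168961, galectin-9) and NECTIN2 (ENSG00000130202, CD112). All 10 were found in both count tables. MDA-MB-231 is a human triple-negative breast carcinoma line, and it was grown in the mammary fat pad of MISTRG mice, which carry human growth factor genes and had been engrafted with human fetal CD34+ stem cells. The immune cells and the carcinoma cells counted here were therefore human but came from different people. In every mouse of both groups the immune cells counted were engrafted ones. The mice also kept mouse CD45+ cells, which are not described here. Of the 14 mice, 7 were left untreated and 7 received the drug maraviroc in their drinking water. The cells were loaded in 2 reactions with antibody hashtags that tell the mice apart, reaction 1 holding 4 untreated and 3 maraviroc mice and reaction 2 holding 3 untreated and 4 maraviroc mice.

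Checkpoint receptors are surface proteins that lower T cell and NK cell activity when they bind ligands on myeloid or tumor cells. PD-1 binds PD-L1 and PD-L2, TIM-3 binds galectin-9 among others, TIGIT binds the poliovirus receptor family to which CD112 belongs, and LAG-3 binds MHC class II. CD39 is an ectoenzyme that degrades extracellular ATP on the way to adenosine, and TOX is a transcription factor of chronically stimulated T cells; neither is itself a checkpoint receptor, and both are commonly read beside them. In tumors, T cells that carry several of these genes are often called exhausted, whereas TCF7 and LEF1 mark less differentiated T cells.

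After removal of doublets and cells outside the quality limits, 19817 cells assigned to 1 mouse each were kept, 11917 in reaction 1 with a median of 3020 UMIs and 7900 in reaction 2 with a median of 9691.5 UMIs. The summed UMIs of a mouse ran from 5996882 to 14782548. A UMI is a molecular tag, so that each counts 1 captured RNA molecule. Only 31 cell barcodes occurred in both reactions. Cells were placed in populations by UMIs of marker genes, none of which was one of the 10 genes, and 40.5% of the cells of reaction 1 and 17.1% of those of reaction 2 fell in no population. The gates gave 2613 T cells, 769 NK cells, 5708 macrophages, 2241 monocytes, 81 LAMP3-positive dendritic cells and 90 carcinoma cells. T cells were divided into 883 CD8 T cells, 698 FOXP3-positive T cells and 964 cells with no UMI of CD8A, CD8B or FOXP3, called conventional T cells here. A conventional T cell may still be a CD8 or FOXP3 cell whose marker was not caught. GNLY, a cytotoxic granule gene, stood at 3053 CPM (counts per 1000000 UMIs) in conventional T cells of reaction 1 and at 901.5 CPM in reaction 2, against 2589 and 2982 CPM in CD8 T cells. In reaction 1 the conventional T cells also held TYROBP at 229.5 CPM, against 66.72 in CD8 T cells, 647.3 in NK cells and 1472 in macrophages. SPP1 stood there at 677.5 CPM, against 271.7 in CD8 T cells and 14550 in macrophages. In reaction 2 conventional and CD8 T cells had 39.63 and 28.45 CPM of TYROBP and 132.1 and 131.0 CPM of SPP1. Which cells this RNA came from was not tested. The carcinoma cells had passed a sort on human CD45, so their number says nothing of the tumor. They were gated on having no UMI of PTPRC, the CD45 gene, and carried the epithelial keratin gene KRT18 at 493.9 and 434.9 CPM in the 2 reactions. Levels below are in CPM, the UMIs of a gene scaled to the summed UMIs of the population in a mouse, and are given for mice with at least 10 cells of that population unless another number is stated. They compare cell populations for 1 gene and are not comparable between genes.

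PDCD1 was highest in CXCL13-positive T cells and LAG3 in CD8 T cells, whereas HAVCR2 and ENTPD1 had their highest means in NK cells. For PDCD1 the level was 69.8 ± 32.1 CPM in CXCL13-positive T cells (SD, n = 8 mice), 57.1 ± 19.7 in conventional T cells (n = 13), 35.3 ± 9.54 in CD8 T cells (n = 11) and 31.5 ± 8.44 in FOXP3-positive T cells (n = 11). The SD ranges of neighbours in that order overlapped, and the first break came below the T cells, at 4.55 ± 2.83 CPM in NK cells (n = 14). Macrophages held 0.585 ± 0.440 CPM of PDCD1 and monocytes 0.514 ± 0.929 (both n = 14). LAG3 fell from 180.1 ± 56.6 CPM in CD8 T cells over 104.1 ± 42.3 in FOXP3-positive and 83.5 ± 43.9 in conventional T cells to 32.9 ± 29.4 in TCF7- or LEF1-positive T cells and 30.6 ± 19.4 in NK cells. Macrophages followed at 7.86 ± 2.99 CPM of LAG3 and monocytes at 1.45 ± 1.65, and these SD ranges overlapped neither each other nor that of NK cells, whereas that of TCF7- or LEF1-positive T cells reached into the macrophages'.

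TIGIT was highest in FOXP3-positive T cells at 377.2 ± 56.6 CPM, and CD8 T cells had 307.0 ± 89.1, with overlapping SD ranges. It stood at 201.2 ± 44.4 CPM in conventional T cells, 144.3 ± 45.4 in NK cells and 4.0 ± 3.16 in macrophages. HAVCR2 was the receptor that myeloid cells shared with lymphocytes: its level was 268.7 ± 54.8 CPM in NK cells, 237.3 ± 24.3 in macrophages, 230.6 ± 32.7 in monocytes and 167.6 ± 47.9 in CD8 T cells, down to 53.9 ± 12.6 in FOXP3-positive T cells. ENTPD1 was likewise spread over lineages, with 380.2 ± 119.7 CPM in NK cells, 270.5 ± 120.5 in CD8 T cells, 254.8 ± 47.2 in FOXP3-positive T cells and 212.2 ± 49.2 in macrophages. TOX stood at 1220 ± 603.6 CPM in CXCL13-positive T cells, 826.8 ± 309.7 in conventional T cells and 590.8 ± 162.2 in NK cells, and dropped to 41.9 ± 13.1 in monocytes and 27.4 ± 10.1 in macrophages.

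**Figure D1:**
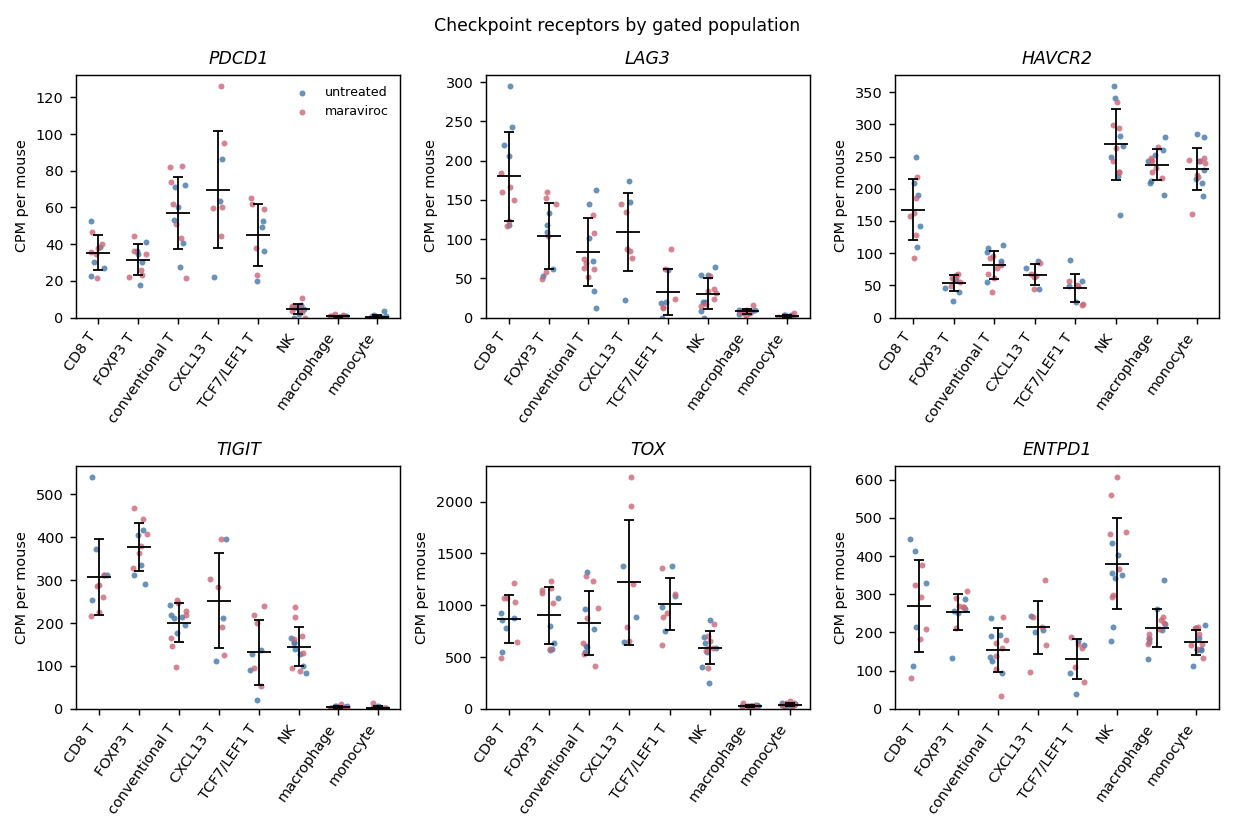
Level of the 6 receptor-side genes in each lymphocyte and myeloid population. Each point is 1 mouse, the vertical axis is in CPM, and the line with whiskers is the mean ± SD over mice; PDCD1, LAG3 and TIGIT are low in macrophages and monocytes, whereas HAVCR2 and ENTPD1 are also carried by NK cells, macrophages and monocytes.

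For TIGIT, PDCD1 and LAG3 the share of cells with a UMI was also taken. TIGIT was seen in 65.8% of the 883 CD8 T cells (exact binomial 95% interval 62.6% to 68.9%) and in 81.1% of the FOXP3-positive T cells (78.0% to 83.9%). In macrophages the share was 3.38% (2.93% to 3.88%). After every cell had been thinned to 1500 UMIs, with 13, 11 and 169 shallower cells left out, the shares were 32.1%, 38.7% and 1.43%. The macrophage share differed with the reaction, at 4.29% in reaction 1 and 2.08% in reaction 2. TRBC1, a T cell receptor gene that no gate used, stood in macrophages at 14.5 CPM in reaction 1 and 3.22 CPM in reaction 2. CD3D, a T cell receptor component, stood there at 9.80 and 2.65 CPM, but the macrophage gate itself limited its UMIs. Which cells the TIGIT and TRBC1 UMIs in macrophages came from was not tested. PDCD1 had a UMI in 23.0% of CD8 T cells, 43.3% of CXCL13-positive T cells, 4.03% of NK cells and 0.561% of macrophages, and in 5.29%, 12.8%, 0.795% and 0.126% after thinning. LAG3 had a UMI in 62.4% of CD8 T cells and 6.36% of macrophages, and in 25.4% and 1.59% after thinning. Its macrophage share was 5.69% in reaction 1 and 7.31% in reaction 2, and 1.82% and 1.27% after thinning. In monocytes the LAG3 shares of the 2 reactions were 1.87% and 0.549%, and 0.967% and 0.0784% after thinning. How much of the LAG3 in macrophages was RNA from other cells was not tested. All these intervals cover counting error only.

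CD8 T cells carried more LAG3, HAVCR2, TIGIT and ENTPD1 and less PDCD1 than the conventional T cells of the same mice. LAG3, which binds MHC class II, lay between 116.4 and 295.0 CPM in CD8 T cells of 11 mice (median 166.7) and between 33.4 and 162.8 CPM in conventional T cells (median 71.8), and it was higher in CD8 T cells in each of the 11 mice. The log2 fold change was 1.01 (edgeR adjusted p = 5.1e-05). HAVCR2 lay between 92.6 and 248.9 CPM (median 163.0) against 39.2 to 112.8 CPM (median 87.7) and was also higher in all 11 mice, with a log2 fold change of 1.005 (edgeR adjusted p = 2.3e-05). TIGIT was higher in 10 of 11 mice at 307.0 ± 89.1 against 209.4 ± 34.9 CPM (log2 fold change 0.48, edgeR adjusted p = 0.0037), and ENTPD1 was higher in 10 of 11 mice at 270.5 ± 120.5 against 157.6 ± 43.6 CPM (0.73, edgeR adjusted p = 0.0057). PDCD1 went the other way, at 21.8 to 52.5 CPM in CD8 T cells (median 35.8) and 21.7 to 82.5 CPM in conventional T cells (median 53.2). It was lower in CD8 T cells in 10 of 11 mice (log2 fold change -0.56, edgeR adjusted p = 0.017). TOX had a log2 difference of -0.08 (edgeR adjusted p = 0.65), with 865.4 against 884.7 CPM. Of the ligands only LGALS9 was abundant enough to be tested, and it was lower in CD8 T cells in 10 of 11 mice (-0.73, edgeR adjusted p = 0.00021). Of the 6 receptor-side genes 4 were thus higher and 1 lower, with a median log2 fold change of 0.61, whereas 18% of the 8634 genes tested differed in this comparison and their median was 0.01. In reaction 1 alone, with 5 mice, LAG3 kept its call and PDCD1, HAVCR2, TIGIT and ENTPD1 did not, and PDCD1 did not pass in reaction 2 alone either (edgeR adjusted p = 0.065). With cells thinned before gating, TIGIT (0.17, edgeR adjusted p = 0.69), ENTPD1 (0.16, adjusted p = 0.73) and LGALS9 (-0.39, adjusted p = 0.53) no longer passed.

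Regulatory T cells, marked here by FOXP3, had higher TIGIT and ENTPD1 than conventional T cells of the same mice. TIGIT lay between 290.9 and 469.2 CPM in FOXP3-positive T cells (median 379.6) and between 145.8 and 253.4 CPM in conventional T cells (median 217.8), so that the 2 populations did not overlap in any of the 11 mice. The log2 fold change was 0.86 (edgeR adjusted p = 5.9e-07). ENTPD1 was higher in all 11 mice, at 254.8 ± 47.2 against 157.6 ± 43.6 CPM (log2 fold change 0.71, edgeR adjusted p = 3.3e-05). After thinning before gating, ENTPD1 stood at a log2 difference of -0.05 (edgeR adjusted p = 0.94). PDCD1 was lower in FOXP3-positive T cells in 9 of 11 mice, at 31.5 ± 8.44 against 53.5 ± 19.3 CPM (-0.77, edgeR adjusted p = 0.00078), a call that was lost in reaction 1 alone (edgeR adjusted p = 0.097). LAG3 (0.24, edgeR adjusted p = 0.42), HAVCR2 (-0.46, adjusted p = 0.072) and TOX (0.02, adjusted p = 0.91) did not pass. The receptor side thus had 2 genes higher and 1 lower (median 0.13), and 24.8% of the 8747 genes tested differed (median -0.01). Among the ligands, PDCD1LG2 was higher in FOXP3-positive T cells at 15.9 ± 11.6 against 6.4 ± 4.69 CPM (1.13, edgeR adjusted p = 0.011), a value that rested on 98 UMIs over 11 mice. LGALS9 was lower (-0.34, edgeR adjusted p = 0.032), which passed under 1 of 7 alternatives, and CD274 did not pass (0.38, adjusted p = 0.33). This comparison and the one of CD8 T cells shared the conventional T cells.

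Within the conventional T cells, those with CXCL13, a B cell attracting chemokine of tumor-reactive and follicular helper T cells, carried more PDCD1, TOX and ENTPD1. PDCD1 lay between 22.2 and 126.1 CPM in CXCL13-positive cells of 8 mice (median 61.9) and between 10.1 and 77.3 CPM in CXCL13-negative cells (median 40.7), and was higher in 6 of 8 mice. The log2 fold change was 0.87 (edgeR adjusted p = 0.025). TOX was higher in 7 of 8 mice at 1220 ± 603.6 against 801.8 ± 263.8 CPM (0.52, edgeR adjusted p = 0.020), and ENTPD1 in 7 of 8 mice at 213.4 ± 69.0 against 122.1 ± 52.3 CPM (0.77, edgeR adjusted p = 0.026). All 3 calls were near the threshold, and each was lost under 3 or 4 alternatives, among them reaction 1 alone. LAG3 (0.59, edgeR adjusted p = 0.12), TIGIT (0.38, adjusted p = 0.21) and HAVCR2 (-0.22, adjusted p = 0.58) did not pass. The receptor-side median was 0.56, and 14.6% of the 6726 genes tested differed, with a median of -0.01. CD274 showed a wider separation than any receptor: it lay between 18 and 39.7 CPM in CXCL13-positive cells (median 24.9) and between 3.37 and 12.7 CPM in CXCL13-negative cells (median 9.31), without overlap. Its log2 fold change was 1.65 (edgeR adjusted p = 0.0088), from 48 UMIs in the CXCL13-positive cells, and it did not pass among mice with at least 20 cells (1.39, edgeR adjusted p = 0.18). LGALS9 did not pass (0.53, edgeR adjusted p = 0.052).

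Conventional T cells with a UMI of TCF7 or LEF1 had lower LAG3, HAVCR2 and TIGIT in each of 9 mice. The cells with such a UMI were also deeper than those without. Their median was 6405 against 2418 UMIs in reaction 1 and 8357 against 5711.5 in reaction 2. Either group may hold CD8 or FOXP3 cells whose markers were not caught. The part of such cells in these differences was not tested. LAG3 ran from 0 to 87.1 CPM (median 19.7) in TCF7- or LEF1-positive cells and from 70.5 to 285.8 CPM (median 142.5) in cells without either, a log2 fold change of -2.18 (edgeR adjusted p = 3.6e-05). HAVCR2 stood at 46.1 ± 22.2 against 125.3 ± 59.6 CPM (-1.56, edgeR adjusted p = 0.00067) and TIGIT at 131.5 ± 75.1 against 306.0 ± 52.7 CPM (-1.24, edgeR adjusted p = 0.0014). PDCD1 was at 45.0 ± 16.6 against 54.7 ± 22.9 CPM (-0.27, edgeR adjusted p = 0.46) and TOX at 1010 ± 253.0 against 906.4 ± 396.7 CPM (0.25, adjusted p = 0.25), neither of which passed. ENTPD1 did not pass either (-0.35, edgeR adjusted p = 0.32). The receptor-side median was -0.79, and 10.8% of the 6793 genes tested differed, with a median of -0.01. LGALS9 moved opposite to the receptors, at 141.1 ± 43.7 against 81.7 ± 27.1 CPM (0.88, edgeR adjusted p = 0.0029). With cells thinned before gating, LAG3 (-1.04, edgeR adjusted p = 0.36), TIGIT (-1.03, adjusted p = 0.075) and LGALS9 (0.47, adjusted p = 0.77) did not pass, and in reaction 1 alone HAVCR2 (adjusted p = 0.12), TIGIT (0.10) and LGALS9 (0.45) did not.

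NK cells differed from CD8 T cells of the same 11 mice in all 6 receptor-side genes. PDCD1 lay between 0 and 10.9 CPM in NK cells (median 5.48), below the 21.8 to 52.5 CPM of CD8 T cells in every mouse (log2 fold change -2.65, edgeR adjusted p = 8.3e-09). LAG3 ran from 14.5 to 63.9 CPM in NK cells (median 33.3) and likewise did not overlap with the 116.4 to 295.0 CPM of CD8 T cells (-2.15, edgeR adjusted p = 2.1e-10). TIGIT was lower in NK cells in 11 of 11 mice at 146.3 ± 47.1 against 307.0 ± 89.1 CPM (-1.06, edgeR adjusted p = 3.5e-07). TOX was lower in 7 of 11 mice (-0.38, edgeR adjusted p = 0.019). HAVCR2 was higher in NK cells in 10 of 11 mice, at 278.9 ± 57.7 against 167.6 ± 47.9 CPM (0.79, edgeR adjusted p = 0.00015), and ENTPD1 in 7 of 11 mice at 378.8 ± 135.2 against 270.5 ± 120.5 CPM (0.52, edgeR adjusted p = 0.048). The calls of PDCD1, LAG3 and TIGIT held under every alternative that was run, whereas ENTPD1 kept its call under 2 of 7. HAVCR2 and TOX did not pass in reaction 1 alone (0.73, edgeR adjusted p = 0.069, and -0.04, adjusted p = 0.94) or with cells thinned before gating (0.16, adjusted p = 0.82, and -0.39, adjusted p = 0.28). In this comparison 18.4% of the 8794 genes tested differed, with a median log2 fold change of -0.01, and the 2 genes higher and 4 lower had a median of -0.72. LGALS9, the only ligand tested there, did not pass (-0.16). The NK gate limited UMIs of TRAC and CD8B but not of CD3D, CD3E or CD3G. CD3D stood at 178.5 and 183 CPM and CD3E at 213.1 and 197.1 CPM in NK cells of the 2 reactions. The CD8 T cells were those of the comparison with conventional T cells.

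**Figure D2:**
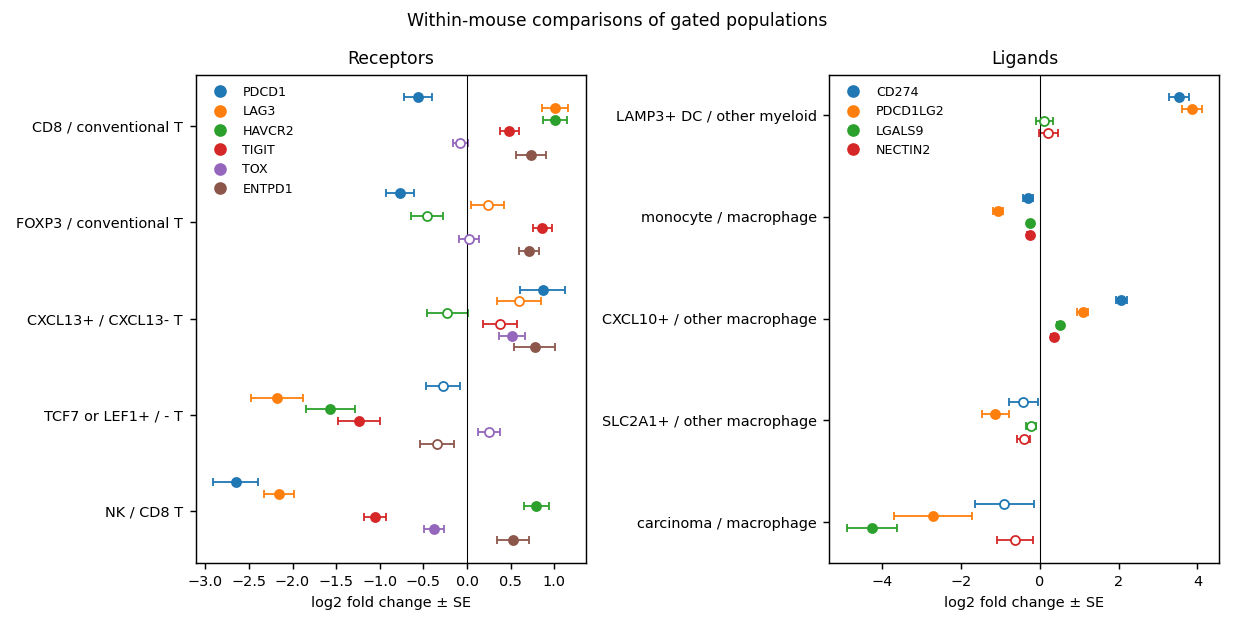
Log2 fold change with its standard error in the comparisons between populations of the same mice, for the 6 receptor-side genes in lymphocytes and the 4 ligands in myeloid and carcinoma cells. Filled points passed an edgeR adjusted p of 0.05 and open points did not; the log2 fold changes of CD274 and PDCD1LG2 in LAMP3-positive dendritic cells, 3.53 and 3.86, are the highest in the plot.

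CD8 T cells carried more than 1 of the receptors per cell more often than conventional T cells, FOXP3-positive T cells and NK cells. PDCD1, LAG3, HAVCR2 and TIGIT were counted in each cell after thinning to 1500 UMIs. The share of CD8 T cells with at least 2 of the 4 was 21.3% ± 7.27 (SD, n = 11 mice), against 9.49% ± 4.27 in conventional T cells of the same mice. The difference was 11.8 ± 7.22 percentage points, higher in all 11 mice (exact two-sided sign-flip permutation test, p = 0.000977, adjusted over the 3 comparisons 0.00293). Against FOXP3-positive T cells, with 9.51% ± 4.16, the share was higher in 9 of 11 mice (exact permutation p = 0.00586, adjusted 0.00586). Against NK cells, with 6.84% ± 4.81, it was higher in 10 of 11 mice (exact permutation p = 0.00195, adjusted 0.00293). Pooled over mice, the thinned share was 22% in CD8 T cells, 13.8% in CXCL13-positive T cells, 10.1% in conventional T cells, 9.90% in FOXP3-positive T cells, 7.15% in NK cells and 4.36% in TCF7- or LEF1-positive T cells. Without thinning the same shares were 64.0%, 58.8%, 37.1%, 47.3%, 41.4% and 30.7%. These 3 tests were chosen after the values had been seen. The share with at least 2 receptors also rises with the share of each receptor alone. After thinning, PDCD1, LAG3, HAVCR2 and TIGIT had a UMI in 5.29%, 25.4%, 22.1% and 32.1% of CD8 T cells. In conventional T cells these shares were 6.95%, 11.3%, 11.4% and 25.9%. Whether the receptors shared cells more often than their separate shares would give was not tested.

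**Figure D3:**
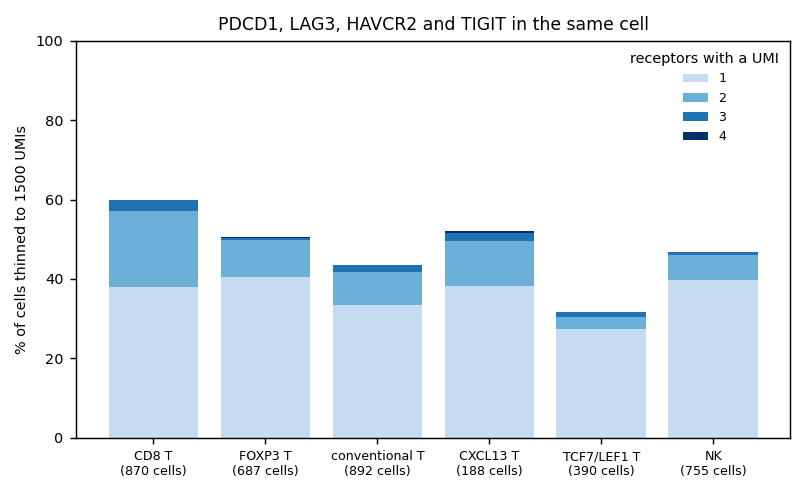
Share of cells with 1, 2, 3 or 4 of the receptors PDCD1, LAG3, HAVCR2 and TIGIT in each lymphocyte population, in percent of cells thinned to 1500 UMIs and pooled over mice. The stacked bars show that 22% of CD8 T cells and 4.36% of TCF7- or LEF1-positive T cells carried at least 2 of the 4.

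The PD-1 ligands had their highest levels in a small population of dendritic cells. LAMP3-positive dendritic cells are mature, migratory dendritic cells, gated here on LAMP3, CCR7 and FSCN1. They numbered 81, and 7 mice had at least 5 of them, the minimum used for this population. CD274 lay between 59.2 and 395.9 CPM in LAMP3-positive dendritic cells (median 278.0) and between 9.91 and 31.7 CPM in the other myeloid cells (median 21.4), with no overlap in any of the 7 mice. The log2 fold change was 3.53 (edgeR adjusted p = 3.3e-30). PDCD1LG2 lay between 59.2 and 463.7 CPM (median 333.6) against 12.4 to 21.6 CPM (median 18.9), again without overlap, with a log2 fold change of 3.86 (edgeR adjusted p = 4.2e-34). LGALS9 (0.11, edgeR adjusted p = 0.71) and NECTIN2 (0.21, adjusted p = 0.51) did not pass, so 2 of 4 ligands were higher, with a median of 1.87. In this comparison 43.1% of the 13346 genes tested differed and the median of all genes was -0.47, or -0.24 with DESeq2. The pooled CD274 level was 182.7 CPM in reaction 1 (95% interval 131.1 to 247.9, counting error only) and 333.7 CPM in reaction 2 (296.6 to 374.1). For PDCD1LG2 it was 133.7 CPM (90.2 to 190.8) and 331.4 CPM (294.5 to 371.7). A CD274 UMI was found in 71.6% of the LAMP3-positive dendritic cells, 36.5% of CXCL10-positive macrophages, 12.9% of CD1C-positive dendritic cells, 10.3% of monocytes and 3.51% of NK cells, and after thinning in 28.4%, 6.88%, 2.75%, 2.58% and 0.795%. Most cells with a UMI were nevertheless macrophages, 712 for CD274 and 755 for PDCD1LG2 against 58 and 56 LAMP3-positive dendritic cells. HAVCR2 and ENTPD1 went the other way: HAVCR2 stood at 22.1 ± 19.7 against 236.0 ± 20.5 CPM (-3.24, edgeR adjusted p = 2.2e-19) and ENTPD1 at 8.40 ± 10.6 against 212.6 ± 26.2 CPM (-4.51, edgeR adjusted p = 1.8e-23). LAG3 (0.18, edgeR adjusted p = 0.84) and TOX (-0.55, adjusted p = 0.22) did not pass. PDCD1 and TIGIT had no UMI in the dendritic cells of these 7 mice.

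Among macrophages, those with CXCL10, an interferon-induced chemokine, had higher levels of all 4 ligands. CD274 lay between 14.3 and 68.1 CPM in CXCL10-positive macrophages (median 51.1) and between 5.98 and 21.0 CPM in macrophages low for CXCL10 (median 10.9), and was higher in each of 14 mice. The log2 fold change was 2.07 (edgeR adjusted p = 8.2e-11), and it passed under every alternative that was run. PDCD1LG2 was higher in 13 of 14 mice, at 32.7 ± 10.9 against 15.3 ± 6.02 CPM (1.09, edgeR adjusted p = 1.9e-06). LGALS9 was higher in 14 of 14 mice at 239.0 ± 32.3 against 170.3 ± 11.4 CPM (0.51, edgeR adjusted p = 1.9e-06), and NECTIN2 in 12 of 14 mice at 120.3 ± 15.7 against 95.9 ± 11.8 CPM (0.36, edgeR adjusted p = 0.0027). With cells thinned before gating, PDCD1LG2, LGALS9 and NECTIN2 no longer passed, and NECTIN2 stood at -0.03. NECTIN2 did not pass in reaction 2 alone either (0.21, edgeR adjusted p = 0.28). The ligand median was 0.80, and 15.5% of the 11239 genes tested differed, with a median of -0.01. On the receptor side HAVCR2 was higher (0.28, edgeR adjusted p = 0.0094), as was LAG3 (0.82, adjusted p = 0.036), TOX was lower (-1.12, adjusted p = 0.00021) and ENTPD1 did not pass (-0.12, adjusted p = 0.42). The LAG3 call was lost in either reaction alone and with at least 20 cells, and that of HAVCR2 in reaction 1 alone and with thinned cells.

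**Figure D4:**
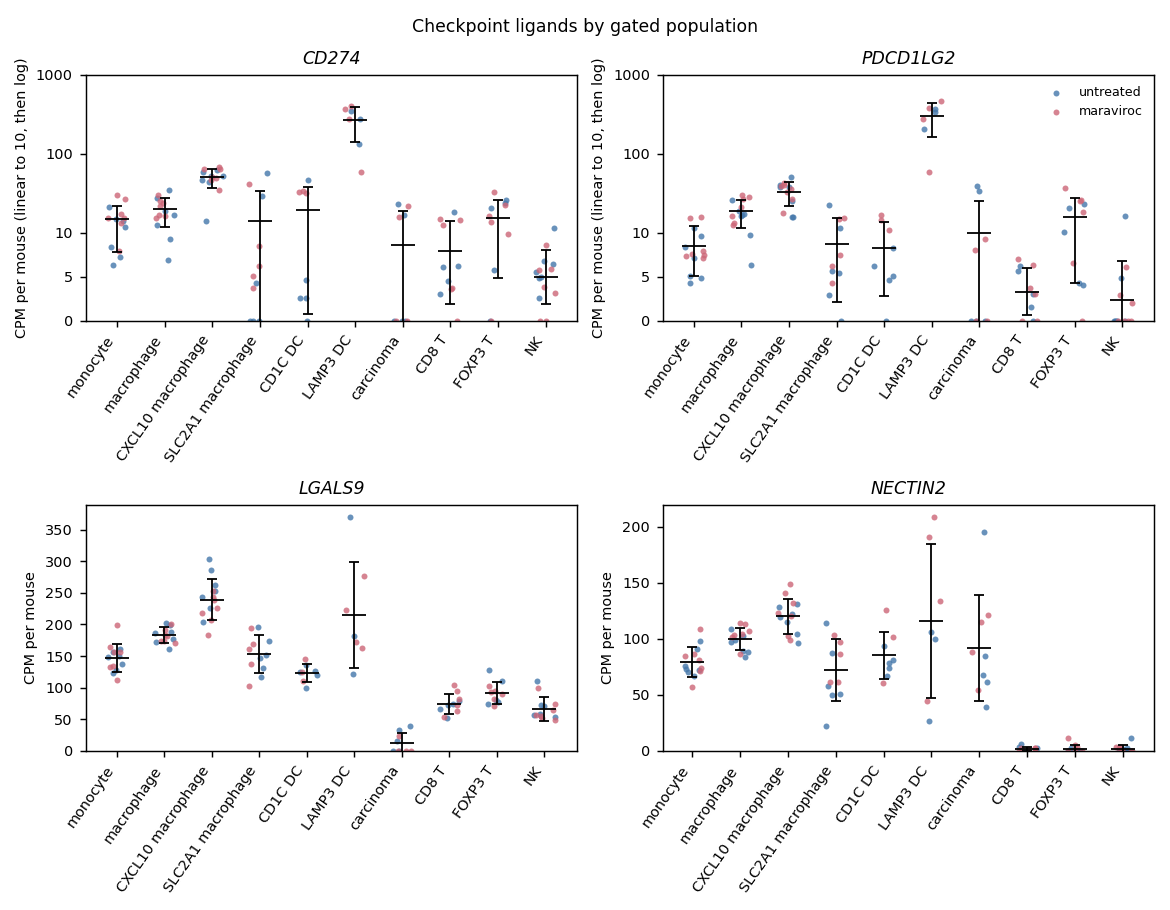
Level of the 4 ligands in myeloid states, carcinoma cells and lymphocytes, in CPM. Each point is 1 mouse, blue for untreated and red for maraviroc, and the line with whiskers is the mean ± SD; LAMP3-positive dendritic cells and carcinoma cells are shown for mice with at least 5 such cells. The axes of CD274 and PDCD1LG2 are linear to 10 and logarithmic above, where LAMP3-positive dendritic cells lie highest, and CXCL10-positive macrophages have 50.5 ± 13.9 CPM of CD274.

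Monocytes, gated on VCAN and FCN1, had lower levels of all 4 ligands than macrophages, gated on C1Q genes. PDCD1LG2 lay between 4.31 and 16 CPM in monocytes (median 7.56) and between 6.33 and 30.4 CPM in macrophages (median 17.1), and was lower in monocytes in 14 of 14 mice. The log2 fold change was -1.07 (edgeR adjusted p = 8.2e-08). LGALS9 was lower in 14 of 14 mice at 147.0 ± 21.5 against 183.0 ± 12.3 CPM (-0.25, edgeR adjusted p = 8.9e-05), NECTIN2 in 11 of 14 mice at 79.5 ± 13.5 against 100.1 ± 9.81 CPM (-0.26, adjusted p = 0.0021), and CD274 in 12 of 14 mice at 15.0 ± 7.09 against 19.7 ± 7.94 CPM (-0.31, adjusted p = 0.042). These differences stand beside 61.7% of the 12534 genes tested that differed, with a median of -0.04 against -0.28 for the ligands. LAG3 was lower in monocytes in 14 of 14 mice, at 1.45 ± 1.65 against 7.86 ± 2.99 CPM (-2.51, edgeR adjusted p = 1.3e-07), TOX was higher (0.71, adjusted p = 1.9e-06), ENTPD1 was lower (-0.19, adjusted p = 0.026) and HAVCR2 did not pass (0.04, adjusted p = 0.54). CD274 did not pass with DESeq2 (adjusted p = 0.057), in reaction 2 alone (edgeR adjusted p = 0.51) or with gates 1 UMI higher (0.090). In reaction 1 alone NECTIN2 (-0.096, edgeR adjusted p = 0.49), LGALS9 (adjusted p = 0.085) and ENTPD1 (0.093) did not pass, nor did NECTIN2 with cells thinned before gating (0.21) or ENTPD1 in reaction 2 alone (0.17).

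Macrophages with SLC2A1, the glucose transporter gene induced by low oxygen, had lower PDCD1LG2 and ENTPD1. PDCD1LG2 was lower in 10 of 11 mice at 8.73 ± 6.60 against 18.5 ± 7.28 CPM (-1.14, edgeR adjusted p = 0.023), from 20 UMIs in the SLC2A1-positive cells. ENTPD1 was lower in 9 of 11 mice at 120.2 ± 96.9 against 224.0 ± 54.8 CPM (-0.97, edgeR adjusted p = 0.00052), and TOX was lower in all 11 at 6.98 ± 4.33 against 26.6 ± 8.59 CPM (-1.76, adjusted p = 0.00011). The SLC2A1-positive cells were deeper, with a median of 11400.5 against 4292 UMIs in reaction 1 and 14160 against 13430.5 in reaction 2. This comparison was not run with cells thinned. After thinning, TOX had a UMI in 6.43% of all macrophages in reaction 1 and 2.85% in reaction 2. How much of the TOX in macrophages was RNA from other cells was not tested. CD274 (-0.42, edgeR adjusted p = 0.52), LGALS9 (-0.22, adjusted p = 0.24) and NECTIN2 (-0.41, adjusted p = 0.096) did not pass, nor did HAVCR2 (-0.09, adjusted p = 0.68), LAG3 (-0.36, adjusted p = 0.69) and TIGIT (-0.57, adjusted p = 0.64). The PDCD1LG2 call was lost in reaction 1 alone (edgeR adjusted p = 0.65) and with gates 1 UMI higher (0.45), and that of ENTPD1 in reaction 2 alone (0.20). The ligand median was -0.42, and 12.52% of the 11706 genes tested differed, with a median of -0.10.

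Carcinoma cells had far less LGALS9 than macrophages of the same mice. NECTIN2 and CD274 did not differ past the threshold in the 3 mice with at least 10 carcinoma cells. Over all 90 carcinoma cells NECTIN2 had 101 UMIs or 93.6 CPM (95% interval 76.2 to 113.7), CD274 had 16 UMIs or 14.8 CPM (8.47 to 24.1), LGALS9 had 12 UMIs or 11.1 CPM (5.75 to 19.4) and PDCD1LG2 had 6 UMIs or 5.56 CPM (2.04 to 12.1). PDCD1 had no UMI, for which the 95% interval reaches up to 3.42 CPM. A NECTIN2 UMI was found in 53.3% of carcinoma cells (42.5% to 63.9%) and in 1.59% of CD8 T cells, and after thinning in 11 of 88 cells and 2 of 870. In the 3 mice with at least 10 carcinoma cells NECTIN2 stood at 54.0, 88.0 and 114.8 CPM, within reach of the 86.2 to 114.6 CPM of their macrophages, and the log2 difference of -0.63 did not pass (edgeR adjusted p = 0.31). LGALS9 was at 0, 0 and 24.0 CPM against 173.5 to 201.1 CPM in macrophages (-4.27, edgeR adjusted p = 2.4e-10). PDCD1LG2 had 2 UMIs in these 3 mice (-2.72, edgeR adjusted p = 0.022), a call that was lost with DESeq2 (adjusted p = 0.077), without the maraviroc mouse of reaction 1 with 11 carcinoma cells (edgeR adjusted p = 0.11) and without that of reaction 2 with 14 (0.17). HAVCR2 and ENTPD1 had 1 UMI each in these carcinoma cells, against 245.6 ± 2.50 and 218.9 ± 31.4 CPM in the macrophages, and LAG3 (-2.24, edgeR adjusted p = 0.20) and TOX (-1.06, adjusted p = 0.24) did not pass. CD274 lay at 0, 16 and 21.6 CPM against 15.5 to 23.5 CPM in macrophages and did not pass (-0.90, edgeR adjusted p = 0.39). In the 9 mice with at least 5 carcinoma cells CD274 did pass (-1.37, edgeR adjusted p = 0.014). Of the 8 genes compared at that minimum, 2 that had not passed among the 3 mice did so, CD274 being among them. Of 11271 genes tested 32.8% differed, and the median of all genes was -0.22 against -1.81 for the ligands. The depth of 90 cells limits each of these levels.

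Maraviroc changed none of the 10 genes past the threshold in T cells, NK cells or myeloid cells. In these populations 9, 6 and 9 of them could be tested. With genes of low counts filtered out, it changed no other gene past the threshold with edgeR either. Without that filter 112 genes passed in T cells, 18 in NK cells and 0 in myeloid cells, none of them among the 10. Of 10178, 7306 and 13267 genes tested in the 3 populations, 0% passed with edgeR, while 508, 240 and 529 had an unadjusted p under 0.05, and DESeq2 called 0, 0 and 2. In T cells LAG3 lay between 11.1 and 185.7 CPM in untreated mice (median 142.1) and between 82.2 and 135.9 CPM in maraviroc mice (median 120.8), so the groups overlapped over the whole range of the treated mice. The log2 difference was -0.29 ± 0.19 (SE, edgeR adjusted p = 0.96). The lowest untreated value came from 1 UMI in 19 T cells. HAVCR2 in T cells lay between 49.3 and 170.5 CPM (median 85.9) against 71.2 to 128.7 CPM (median 86.6), with a log2 difference of -0.32 ± 0.19 (edgeR adjusted p = 0.96). PDCD1 was at 40.3 ± 21.4 against 40.9 ± 7.85 CPM (0.06 ± 0.19) and TIGIT at 269.6 ± 92.5 against 288.0 ± 19.8 CPM (0.04 ± 0.14), neither distinguishable from the spread between mice. ENTPD1 had a log2 difference of -0.21 ± 0.15 (edgeR adjusted p = 0.97) in T cells. PDCD1LG2 had one of 0.67 ± 0.36 (edgeR adjusted p = 0.96), from low levels that moved in opposite directions in the reactions. It went from 6.9 ± 3.4 CPM in untreated to 2.3 ± 2.4 CPM in maraviroc mice of reaction 1, and from 4.8 ± 4.2 to 15.6 ± 2.1 CPM in reaction 2. Its log2 difference in reaction 2 minus that in reaction 1 was 2.59, with an unadjusted edgeR p of 0.0026 and an edgeR adjusted p of 0.9999. The summed level of myeloid marker genes in the T cells, a measure of RNA from other cells, had a median of 523 CPM in untreated mice (188 to 2370) and 223 CPM in maraviroc mice (184 to 725). That of the NK marker genes GNLY, NKG7 and PRF1 had a median of 3160 CPM (1050 to 7660) against 1340 CPM (967 to 6690). GNLY stood at 2589 and 2982 CPM in CD8 T cells of the 2 reactions and at 321.3 and 265.5 CPM in FOXP3-positive T cells. The NK sum is therefore not a measure of RNA from other cells alone. The part of either sum in the treatment differences was not tested.

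TOX in T cells differed by reaction more than by treatment. In reaction 1 it was 643.1 ± 82.5 CPM in 4 untreated and 651.8 ± 81.1 CPM in 3 maraviroc mice, and in reaction 2 it was 985.4 ± 62.4 CPM in 3 untreated and 1111 ± 57.1 CPM in 4 maraviroc mice. Every mouse of reaction 2, from 917.8 to 1187 CPM, lay above every mouse of reaction 1, from 562.0 to 751.4 CPM. The treatment difference with the reaction in the model was 0.12 ± 0.09 on the log2 scale (edgeR adjusted p = 0.96).

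In NK cells, TIGIT and ENTPD1 had the largest treatment differences of the receptors, 0.31 ± 0.14 and 0.38 ± 0.18 on the log2 scale, with unadjusted p of 0.041 and 0.047 and edgeR adjusted p of 0.9994 for both. TIGIT lay between 139.3 and 164.7 CPM in untreated and between 170.7 and 236.4 CPM in maraviroc mice of reaction 1, without overlap. In reaction 2 the ranges were 83.2 to 127.9 and 87.8 to 162.3 CPM and overlapped. In myeloid cells the PD-1 ligands had the largest differences, 0.36 ± 0.29 for CD274 and 0.42 ± 0.23 for PDCD1LG2 (edgeR adjusted p = 0.9999 for both). CD274 went from 15.4 ± 7.86 CPM in untreated to 16.9 ± 2.86 CPM in maraviroc mice of reaction 1 and from 21.6 ± 14.6 to 31.5 ± 2.24 CPM in reaction 2. PDCD1LG2 went from 12.4 ± 4.23 to 12.9 ± 0.855 CPM in reaction 1 and from 16.9 ± 7.26 to 27.5 ± 4.36 CPM in reaction 2, where the untreated mice reached 23.0 CPM and the lowest maraviroc mouse had 22.7 CPM. LGALS9 and NECTIN2 in myeloid cells had differences of -0.004 ± 0.059 and 0.10 ± 0.06. A test of whether the maraviroc difference itself differed between the reactions called 0 genes in each of the 3 populations with edgeR. In T cells 393 of 10855 genes tested had an unadjusted p under 0.05, and in NK cells 312 of 7849. In myeloid cells 1664 of 13794 genes did, the largest share of the 3 populations, and the reason was not tested. Among them was ENTPD1, whose log2 difference in myeloid cells was 0.22 in reaction 1 and -0.27 in reaction 2.

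**Figure D5:**
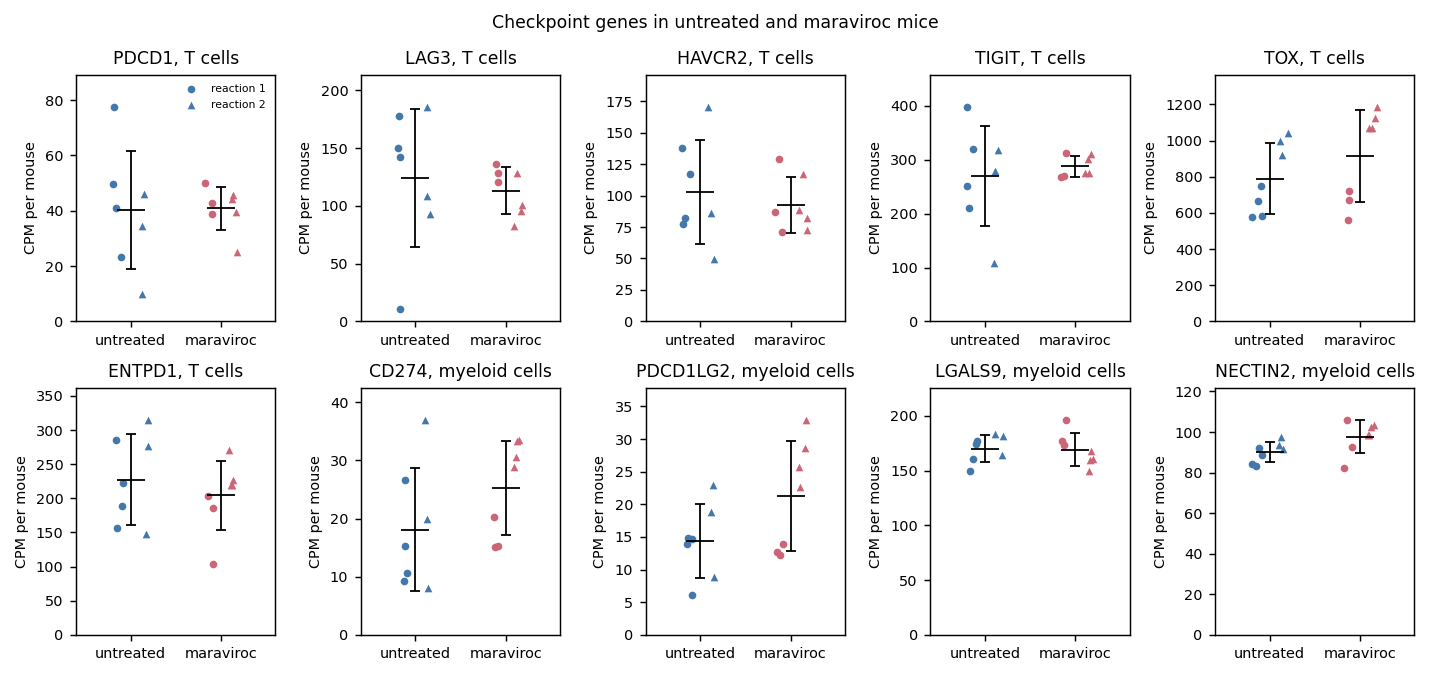
Levels in untreated and maraviroc mice, in CPM, of the receptor-side genes in T cells and of the ligands in myeloid cells. Each circle is a mouse of reaction 1 and each triangle a mouse of reaction 2, and the horizontal line with whiskers is the mean ± SD of a group of 7 mice; the groups overlap, and TOX in T cells separates by reaction, with 562.0 to 751.4 CPM in reaction 1 and 917.8 to 1187 CPM in reaction 2.

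Other genes of the checkpoint family, 20 receptors and 21 ligands listed by name, gave the setting for these changes, and each count stands beside the share of all genes tested that differed. The receptor list also held the linked genes TOX2 and NT5E, and the ligand list held the enzyme gene IDO1. These are counted under those names but are not themselves receptors or ligands. In CD8 against conventional T cells 3 of 14 tested receptors were higher and 7 lower, against 18% of all genes, among them the costimulatory receptors TNFRSF4 (-3.38) and CD28 (-1.72) and the inhibitory BTLA (-1.87), while KLRC1, the NKG2A gene, was higher (1.64). In FOXP3-positive T cells 8 of 15 receptors were higher and 5 lower, against 24.8% of all genes, with KLRC1 at -4.73 and KLRG1 at -2.85. Of the 12 ligands tested there 3 were higher and 2 lower, the latter TNFSF4, the OX40 ligand gene (-3.55), and NECTIN3 (-2.76). CXCL13-positive T cells had 3 of 13 receptors higher and 3 lower, against 14.6% of all genes, with KLRC1 at -2.47, CD28 at -2.21 and KLRG1 at -1.46. Of 10 ligands 1 was higher, TNFSF4 at 3.21, and 2 were lower. TCF7- or LEF1-positive T cells had 3 of 13 receptors higher and 4 lower, against 10.8% of all genes, with KLRG1 at 1.92, CTLA4 at -1.85 and KLRC1 at -1.44. Of 11 ligands 1 was higher and 2 were lower there, with CD86 at -2.16. In NK against CD8 T cells 4 of 15 receptors were higher and 6 lower, against 18.4% of all genes, and CD28 (-3.16), ICOS (-3.09), TOX2 (-2.61) and CTLA4 (-2.18) moved most, all passing an edgeR adjusted p of 0.05.

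Of the other ligands, 5 of 17 were higher and 6 lower in LAMP3-positive dendritic cells, where 43.1% of all genes tested differed. IDO1, a tryptophan-degrading enzyme, had a log2 fold change of 5.48 there, CD276 of -4.55 and the collagen receptor gene LAIR1 of -6.83, and CD28 had no UMI in these cells of the 7 mice tested. CXCL10-positive macrophages had 6 of 15 ligands higher, against 15.5% of all genes in either direction, with IDO1 at 3.35 and CD47, the don't-eat-me signal, at 0.58, beside NT5E at -1.11 and CD226 at -0.97 among the receptors. Monocytes had 6 of 16 ligands higher and 8 lower, against 61.7% of all genes, with TNFSF18 at -4.22 and CD276 at -1.86, and among the receptors CD28 at -4.53 and CD226 at 1.89. SLC2A1-positive macrophages had 2 of 15 ligands higher and 1 lower, against 12.52% of all genes, with IDO1 at -2.23 and LGALS3 at 0.76, and with CD96 at -2.21 and NT5E at 1.72 among the receptors. In carcinoma cells 2 of 13 ligands were higher and 6 lower, against 32.8% of all genes, and CD48, CD28, ICOSLG and KLRC1, the 4 with the largest fitted differences, had no UMI in the carcinoma cells tested.

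Over 18 populations of cells pooled from all mice, the gene whose log2 level followed CD274 most closely was PDCD1LG2, with a Pearson correlation of 0.958 among 10828 genes, a description of populations that share libraries and depth. The LAMP3-positive dendritic cells, highest in both genes, were among these populations, and the correlation without them was not computed. After PDCD1LG2 came GRAMD1A at 0.853 and RAB9A at 0.834 for CD274, and CCL19 at 0.902 and FBXL14 at 0.874 after CD274 for PDCD1LG2. PDCD1 was followed most closely by SGPP2 (0.968), LINC00649 (0.964) and TNFRSF25 (0.944), and LAG3 by BCL11B (0.937), LINC00649 (0.921) and RORA (0.918). TIGIT was followed by the T cell genes TRBC1 (0.988), LCK (0.986) and UBASH3A (0.985), and TOX by PPP1R7 (0.958), FYN (0.958) and AC090152.1 (0.956). HAVCR2 was followed by CCL3 (0.927), CMIP (0.900) and STOM (0.896), and ENTPD1 by KCNAB2 (0.891), ITGAL (0.889) and EEFSEC (0.884). LGALS9 was followed by NCKAP1L (0.896), TNFAIP8 (0.889) and SLC9A9 (0.873), and NECTIN2 by TBC1D12 (0.979), PDLIM5 (0.972) and RAC1 (0.956).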

How the data were processed

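Single cells were captured with the 10x Chromium 3′ v3.1 kit from human CD45+ cells of 14 mice in 2 reactions. Per the labels and methods, the authors aligned the reads to GRCh38 and counted them with Cell Ranger 9.0.1, and the submitters' processing notes name Seurat 5.1.0. The deposited matrices hold raw UMI counts of genes and of hashtag antibodies per barcode. GEO names the organism as mouse, although the genes counted are human. Treatment was read from the hashtag names.

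Hashtags were assigned with HTODemux of Seurat 5.3.0 (centered log ratio, quantile 0.99), and doublets and negatives were removed. Kept cells had 601 to 6000 genes and under 12.5% mitochondrial UMIs. Populations were gated on marker UMIs, with minimums set after the marker distributions and cell numbers had been seen but without the values of the 10 genes. UMIs were summed per mouse and population, for mice with at least 10 cells, and tested with edgeR 4.0.16 (quasi-likelihood, R 4.3.3) with the reaction as a term for treatment and the mouse as a block between populations; p-values were adjusted by Benjamini-Hochberg over all genes tested, with 0.05 as threshold. DESeq2 1.42.0 was an alternative. The minimum of 5 cells for LAMP3-positive dendritic cells and carcinoma cells, leaving out each mouse of the carcinoma comparison, and the sign-flip test of receptor sharing were added after the data had been seen. Replicates are mice. Scripts were tested on simulated data.

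The 10 genes, the gene lists and the gates were chosen with earlier results of these data known. The 10 genes were described in the comparisons between populations where they could be tested, with up to 4 other checkpoint genes past the threshold with the largest log2 fold change, and the 3 genes most alike to each of the 10 over populations (log2 of CPM plus 10, genes with at least 500 UMIs). Some values of the 10 genes that did not pass are not given. Intervals are exact at 95% and cover counting error only. Python 3.11.15 with numpy 2.4.6, scipy 1.17.1 and pandas 2.3.3 was used.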

Additional observations from a re-analysis of the deposited data

Results flagged for a closer look

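In the myeloid cells of the 7 maraviroc mice, HAVCR2 was highest in 1 mouse of reaction 2, at 247.5 CPM from 1925 UMIs in 575 cells, and the next mouse had 232.5 CPM. The gap was 0.588 of the range of the group, above the 95% critical value of Dixon's test for 7 samples. It was the only value so marked among 36 groups tested, and chance marks about 1 in 20 groups.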

How the results depend on the processing

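Of 50 calls of the 10 genes between populations, 19 passed under every alternative run and 31 were lost under at least 1; over all settings, 862 of 1010 recomputed values kept their direction and their side of the threshold. The causes of the shifts were not tested, except that a single reaction, a higher cell minimum and a left-out mouse leave fewer mice, and thinning leaves fewer UMIs. The number of genes called moved most with cells thinned before gating (CD8 T cells 244, FOXP3-positive 271, CXCL13-positive 21, TCF7- or LEF1-positive 81, NK against CD8 T cells 185, monocytes 2122, CXCL10-positive macrophages 281) and in reaction 1 alone (181, 597, 68, 152 and 571 in the first 5, 735 in CXCL10-positive and 836 in SLC2A1-positive macrophages). Reaction 2 alone called 865 genes in CXCL10-positive and 519 in SLC2A1-positive macrophages, gates 1 UMI higher called 801 in the latter, at least 20 cells 370 in CXCL13-positive T cells, and at least 5 cells 6389 in carcinoma cells. Leaving out 1 mouse called 1706 to 3417 genes in carcinoma cells, the lowest without the maraviroc mouse of reaction 2 with 14 carcinoma cells.

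For maraviroc the called genes were 112 in T cells and 18 in NK cells without a filter on low counts, 1 in T cells of reaction 2 alone, 2 in thinned T cells, 2 in myeloid cells with DESeq2, and 0 to 1 in T cells with 1 mouse left out. None of the 10 genes passed in any of these fits. Log2 differences that turned sign were PDCD1 in T cells thinned (-0.31), TIGIT in T cells in reaction 1 alone (-0.076), with higher gates (-0.061), thinned (-0.20) and with at least 20 cells (-0.069), HAVCR2 in NK cells in reaction 2 alone (0.021) and with higher gates (0.0032), TOX in NK cells thinned (-0.50), HAVCR2 in myeloid cells without the reaction term (0.0032), in reaction 1 alone (0.060) and thinned (0.0496), and ENTPD1 (0.22) and LGALS9 (0.10) in myeloid cells of reaction 1. So did LGALS9 in T cells of reaction 2 (-0.081) and thinned (-0.12) and in NK cells of reaction 1 (0.29) and with higher gates (0.0060), and in myeloid cells LAG3 in reaction 2 alone (-0.23), TIGIT without the reaction term (-0.26) and thinned (-0.32), and TOX thinned (-0.021). Without the reaction term 3 values turned sign in all, not all of which are named here. With 1 mouse left out, CD274 in T cells ran from -0.21 to 0.12, PDCD1 from -0.031 to 0.19 and TIGIT from -0.043 to 0.13. In NK cells LAG3 ran from -0.44 to 0.18, HAVCR2 from -0.097 to 0.064 LGALS9 from -0.17 to 0.039 and TOX from -0.057 to 0.22, and in myeloid cells LAG3 ran from -0.22 to 0.17, TIGIT from -0.289 to 0.265, HAVCR2 ran from -0.039 to 0.027, ENTPD1 from -0.094 to 0.072 and LGALS9 from -0.035 to 0.031.

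Between populations, 3 called differences turned sign, all with cells thinned before gating: ENTPD1 in FOXP3-positive (-0.047) and in CXCL13-positive T cells (-0.0785), and NECTIN2 in CXCL10-positive macrophages (-0.026). Of those not called, TOX turned in CD8 T cells of reaction 1 (0.082) and in FOXP3-positive T cells of reaction 2 (-0.055), with higher gates (-0.11) and thinned (-0.18), LAG3 in FOXP3-positive T cells thinned (-0.29), PDCD1 in TCF7- or LEF1-positive T cells of reaction 1 (0.12), HAVCR2 in monocytes without a filter (-0.0018), in reaction 1 alone (-0.0040) and thinned (-0.20), HAVCR2 in SLC2A1-positive macrophages of reaction 1 (0.055), CD274 there with higher gates (0.52) and LAG3 there in reaction 2 alone (0.11), LGALS9 in NK against CD8 T cells of reaction 1 (0.037), and TOX in carcinoma cells with at least 5 cells (0.041).

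Maraviroc in carcinoma cells was not run, since too few mice had 10 such cells. For the same reason single reactions, higher gates, thinning and 20 cells were not run for carcinoma cells, thinning and 20 cells for SLC2A1-positive macrophages, and reaction 1 alone, thinning and minimums of 10 and 20 cells for LAMP3-positive dendritic cells. The shallower reaction and the small populations limit depth.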

Other observations

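Pooled over mice and without a test, LAG3 was also found in conventional type 1 dendritic cells (69 cells gated on CLEC9A, XCR1 and CADM1), with 47 UMIs or 58.4 CPM (exact 95% interval 42.9 to 77.7, counting error only), and in plasmacytoid dendritic cells (130 cells), with 25 UMIs or 15.4 CPM (9.95 to 22.7). The type 1 dendritic cells held 402.8 CPM of TOX (360.2 to 449.2). Too few mice had 10 such cells for a comparison over mice.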
